A study of Mus musculus with 3 samples.

Results

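Sall4, Dppa2, Dppa3, Dppa4, Lefty2, Otx2, Rif1, Fbxo15, Tet1 and Tet2 were followed in RNA recovered with Mettl3 or with Zfp217 from nuclei of CCE cells, a mouse embryonic stem cell line. These 10 genes were taken by symbol, and every transcript listed for them was used, 19 transcripts of 10 genes among 8547 symbols listed in all. Mettl3 RIP was 1 library made with an antibody against Mettl3, Zfp217 RIP was 1 library made with an antibody against Zfp217, and the input was 1 library with no antibody named in its labels. CCE cells were grown without feeder cells in serum and leukemia inhibitory factor, and received no treatment, and the labels name no engineered allele. The series addresses which RNAs associate with the 2 proteins, and its title ties Zfp217 to m6A. RNA pulled down with a nonspecific antibody was not analysed here, so material that sticks to beads was not measured.

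Embryonic stem cells hold a network of factors that keep the naive state, and leaving it requires that network to be taken down while early epiblast genes come up. In the m6A methyltransferase, Mettl3 carries the activity that methylates adenosines of mRNA, and m6A is known in these cells to shorten the life of many pluripotency mRNAs. Zfp217 has zinc fingers and works in chromatin complexes. The genes described here sit on both sides of the transition. Sall4 and the Dppa proteins belong to the stem cell and early embryo program, Otx2 leads cells out of the naive state, and Tet1 and Tet2 oxidise 5-methylcytosine in DNA.

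With 1 library of each kind, no p-value could be computed, and each ratio compares libraries rather than conditions. Estimated depth was 9940000 scaled fragments for Mettl3 RIP, 7100000 for Zfp217 RIP, and, for the input, 6150000 from the Mettl3 table and 6100000 from the Zfp217 table. Values were FPKM, which are fragments divided by transcript length and library size. No listed RIP value was under 1 FPKM, and no ratio to an input above 0 was under 1.5, so a gene that is not listed has no value here and cannot be called lower. Of 12 fixed embryonic stem cell markers, 7 were listed for Mettl3 and 8 for Zfp217, among them Pou5f1, Nanog, Sox2 and Esrrb. Zfp42, Utf1, Dppa5a and Tdgf1 were in neither table. Of all symbols with a protein-coding transcript in the annotation GENCODE M21, expressed or not, 25.2% were listed for Mettl3 and 21.7% for Zfp217. Of 7 fibroblast markers, Fn1 was listed for Mettl3 (14.9 FPKM in the RIP and 6.11 FPKM in the input) and none for Zfp217. None of 6 primitive endoderm, 4 mesendoderm and 4 neuroectoderm markers was in either table, which does not give their levels.

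Several listed transcripts of one gene share nearly all their bases, and short sequences at splice junctions tell these listed transcripts apart. Those of Tet1, Sall4 and Otx2 are shown because the values of these genes turn on them. Not all are particular to 1 annotated transcript. Both Otx2 junctions are also in other annotated Otx2 transcripts, and the Sall4-203 junction of exon 1 to exon 2 is also in Sall4-201. Names such as Tet1-201 are those of GENCODE M21 on GRCm38, which gives the coordinates. All sequences lie in coding parts, run 5′ to 3′ and hold 15 bases on each side of the junction, with the downstream exon in capitals.
Tet1-201: aactaccccttacatGAAAAACAGCTTGAA
Tet1-206, into its additional exon: aactaccccttacatAACTACTATAAGAGA
Tet1-206, out of its additional exon: ctcataagcagagagGAAAAACAGCTTGAA
Sall4-202: cggcggaggaacccgGTCGTACCAGCCTCC
Sall4-203, exon 1 to exon 2: cggcggaggaacccgGTGCTCCAGTGAACT
Sall4-203, exon 2 to exon 3: acgaagtcgtcctcgGTCGTACCAGCCTCC
Sall4-207: acgaagtcgtcctcgGGGAGAGACCATTCC
Sall4-206: tgcgacacacacctgGTGCTCCAGTGAACT
Otx2-201: ccgtgggctaccccgCCACCCCCCGGAAAC
Otx2-202: ccgtgggctaccccgGGCCCTGGGCTTCTT

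Tet1-201 (ENSMUST00000050826) and Tet1-206 (ENSMUST00000174189) are both full-length mRNAs of Tet1, which lies on chromosome 10 from 62804570 to 62908996 (minus strand). They differ in coding sequence by an exon of 96 bases (32 codons) at chr10:62818939-62819034, present in Tet1-206 and skipped in Tet1-201.
Tet1-206, additional exon: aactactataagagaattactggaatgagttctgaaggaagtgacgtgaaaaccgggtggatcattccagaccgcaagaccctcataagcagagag
Only 7 of the 13986 bases of Tet1-201, and 1 of its 10 junctions, are in no other annotated Tet1 transcript. For Tet1-206 these were 271 of 14369 bases and 3 of 12 junctions. Fragments that could separate them are therefore a small part of all Tet1 fragments.

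Of the 10 genes, 8 were listed for Mettl3 with 15 transcripts and 6 were listed for Zfp217 with 11 transcripts. Symbols with a protein-coding transcript in GENCODE M21, whether or not stem cells express them, were listed in 25.2% of cases for Mettl3 and 21.7% for Zfp217. Sall4, Dppa4, Otx2 and Tet1 were in both tables. Dppa2, Lefty2, Rif1 and Tet2 were listed for Mettl3 and not for Zfp217, and Dppa3 and Fbxo15 were listed for Zfp217 and not for Mettl3. The 4 genes in both tables were 4 of the 8 in the Mettl3 table, where 4357 of all 6971 symbols were in both. They were 4 of the 6 in the Zfp217 table, where 4357 of all 5933 symbols were in both. Of the 10 genes, each listed in at least 1 table, 4 were in both. Of all symbols in either table, 51.0% were in both. At the level of transcripts, 7 were in both, 46.7% of those listed for Mettl3 and 63.6% of those listed for Zfp217. Over all genes, 4026 transcripts were in both, of 9501 listed for Mettl3 and 8120 listed for Zfp217.

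**Figure D1:**
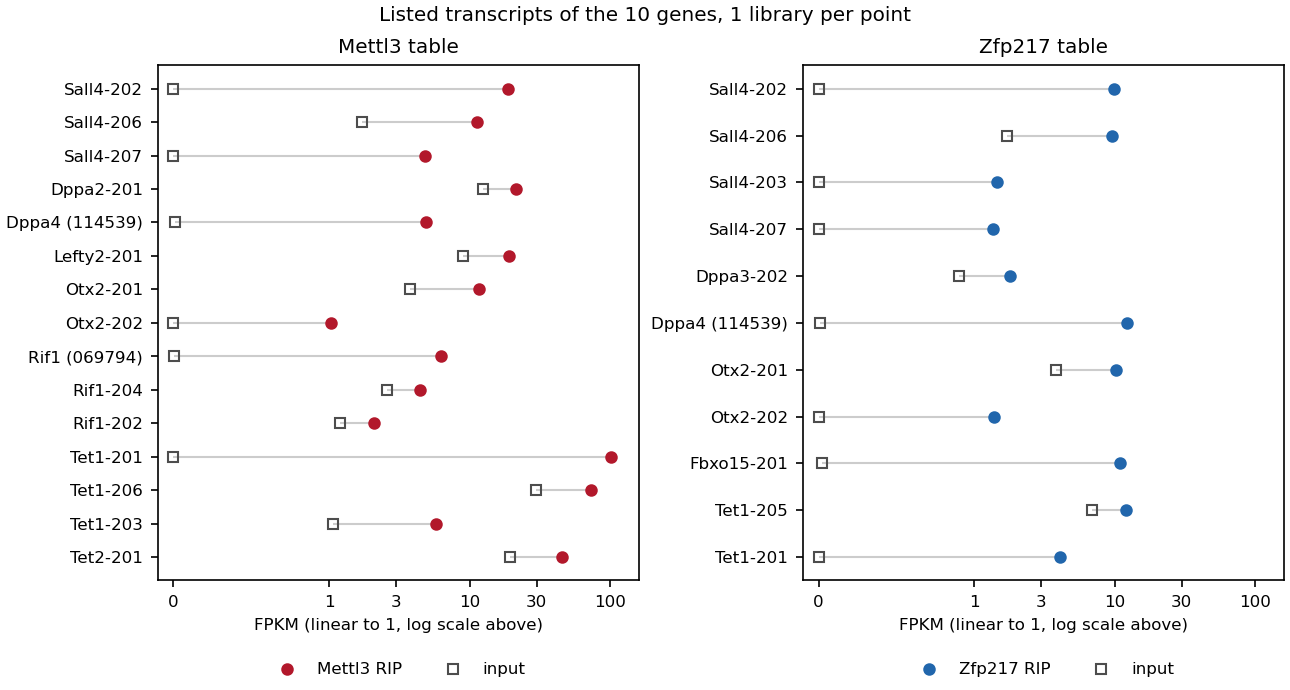
FPKM of every listed transcript of the 10 genes in the RIP (filled circles) and the input (open squares), with the Mettl3 table left and the Zfp217 table right; each point is 1 library, and names in brackets are the end of an Ensembl identifier that is not in GENCODE M21. RIP values run from 1.03 to 102 FPKM for Mettl3 and from 1.35 to 12.3 FPKM for Zfp217, and several inputs are listed at 0.

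A gene was represented by its transcript with the highest mean FPKM of RIP and input, the leading transcript, and was counted when that transcript was at least 2-fold higher on the scale log2(FPKM + 1). For Mettl3, 6 of 8 listed genes met this rule, Sall4, Dppa4, Lefty2, Otx2, Tet1 and Tet2, where 48.6% of all 5397 genes did. For Zfp217 it was 4 of 6, Sall4, Dppa4, Fbxo15 and Otx2, against 45.5% of 4258 genes. Sall4, Dppa4 and Otx2 met it in both tables, 3 of the 4 genes listed in both, where 32.3% of 2916 genes did. Both counts of a gene divide by the same input library. Dppa4 in both tables, Fbxo15 for Zfp217 and Sall4-202, the leading Sall4 transcript for Mettl3, had inputs at or near 0 and passed the filter on the mean through the RIP alone, so these counts are a description. The median log2 ratio of the leading transcripts was 1.23 over the 8 genes for Mettl3 and 1.59 over the 6 genes for Zfp217, beside 0.98 and 0.92 over all genes of each table. With both values at least 1 FPKM, 5 of 7 genes met the rule for Mettl3, where 33.9% of 3341 genes did, and 2 of 3 for Zfp217, where 20.6% of 2321 genes did. An alternative added after seeing the data left out transcripts under 1 estimated input fragment. It also left out those with no estimate, for lack of a GENCODE M21 length or a length under 300 bases. With it, 5 of 7 genes met the rule for Mettl3, where 36.6% of 4001 genes did. For Zfp217, 2 of 4, Otx2 and Sall4, met it, where 24.8% of 2848 genes did. The median log2 ratio was then 1.19 for Mettl3 and 0.98 for Zfp217, beside 0.86 and 0.72 over all genes.

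Tet1 and Tet2 had the highest RIP values of the 10 genes in the Mettl3 table, while Dppa4 and Tet1-205 led in the Zfp217 table. In the Mettl3 table, Tet1-201 had 102 FPKM in the RIP and was listed at 0 in the input, and Tet1-206 had 73.8 FPKM in the RIP and 29.95 FPKM in the input. These were the 21st and 40th highest RIP values of 6403 protein-coding transcripts in that table. Tet1-206 was 2.46-fold higher in the RIP, with a 95% counting interval of 2.36 to 2.57, from about 10430 fragments in the RIP and 2620 in the input. The interval covers counting error only, not the division of fragments between transcripts or the spread between cultures.

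No fold is given for Tet1-201, whose input was listed at 0 while that of Tet1-206, nearly the same sequence, was not. Summed over its 3 listed transcripts, Tet1 had 181.2 FPKM in the Mettl3 RIP and 31.0 FPKM in the input. That sum leaves out transcripts not listed for Mettl3, such as Tet1-205, so no ratio is given for the gene. The third, Tet1-203 (ENSMUST00000173087), is a piece of 581 bases that keeps an intron of 165 bases spliced out of Tet1-201, and its annotated coding sequence ends inside that intron. It had 5.75 FPKM in the RIP and 1.06 FPKM in the input, 5.42-fold higher, with an interval of 1.61 to 29.7 from about 25.1 fragments in the RIP and 2.84 in the input.

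In the Zfp217 table, Tet1-201 had 4.09 FPKM in the RIP and was again listed at 0 in the input. Tet1-205 (ENSMUST00000174121), a piece of 1197 bases that is coding throughout and has no annotated stop codon, had 12.1 FPKM in the RIP and 6.84 FPKM in the input, 1.77-fold higher (interval 1.22 to 2.59). Tet1-206 was not listed for Zfp217, so its level in that RIP is not known here. Tet1 missed the 2-fold rule for Zfp217, with a log2 ratio of 0.74 for Tet1-205, its leading transcript.

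Tet2, whose full-length transcript ENSMUST00000098603 is 9179 bases long, had 45.6 FPKM in the Mettl3 RIP and 19.4 FPKM in the input. The ratio was 2.35 (interval 2.20 to 2.52), from about 4092 fragments in the RIP and 1076 in the input. Its ratio was close to that of Tet1-206, and the 2 intervals overlap. Tet2 lies on chromosome 3 from 133463679 to 133545139 on the minus strand, and was not listed for Zfp217.

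Sall4, a zinc finger transcription factor needed for self-renewal of embryonic stem cells, had 4 listed transcripts, as many as Tet1. It lies on chromosome 2 from 168748332 to 168767943 (minus strand). Its exon 2, of 2367 bases, encodes most of the zinc fingers of the long protein. The long mRNA with the whole of exon 2, Sall4-201, was in neither table. Sall4-202 (ENSMUST00000075044) joins exon 1 to exon 3 and so lacks exon 2, Sall4-203 (ENSMUST00000103074) keeps 1035 bases of it, and Sall4-207 (ENSMUST00000150588) is a piece of 393 bases that lacks 636 bases within it. Sall4-206 (ENSMUST00000137536), of 773 bases, starts from another first exon and ends inside exon 2.

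Sall4-202 had 18.7 FPKM in the Mettl3 RIP and was listed at 0 in the input. It had 9.87 FPKM in the Zfp217 RIP, with the input again at 0. None of its 2534 bases is outside other Sall4 transcripts, and 1 of its 2 junctions, printed above, is its own. Sall4-207 had 4.77 FPKM in the Mettl3 RIP and 1.35 FPKM in the Zfp217 RIP, and Sall4-203 had 1.45 FPKM in the Zfp217 RIP, all with inputs listed at 0. All 3 were thus seen in at least 1 RIP and listed at 0 in the input, so no fold is given for them.

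Sall4-206 was the only listed Sall4 transcript with a value above 0 in the input. It had 11.3 FPKM in the Mettl3 RIP and 1.70 FPKM in the input, 6.64-fold higher (interval 2.99 to 17.7). In the Zfp217 table it had 9.54 FPKM in the RIP and 1.72 FPKM in the input, 5.56-fold higher (2.43 to 15.1). The input rested on about 6.56 fragments in the Mettl3 table and nearly the same number in the Zfp217 table. Among the transcripts with at least 1 estimated input fragment, this was the highest ratio of the 10 genes in each table.

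**Figure D2:**
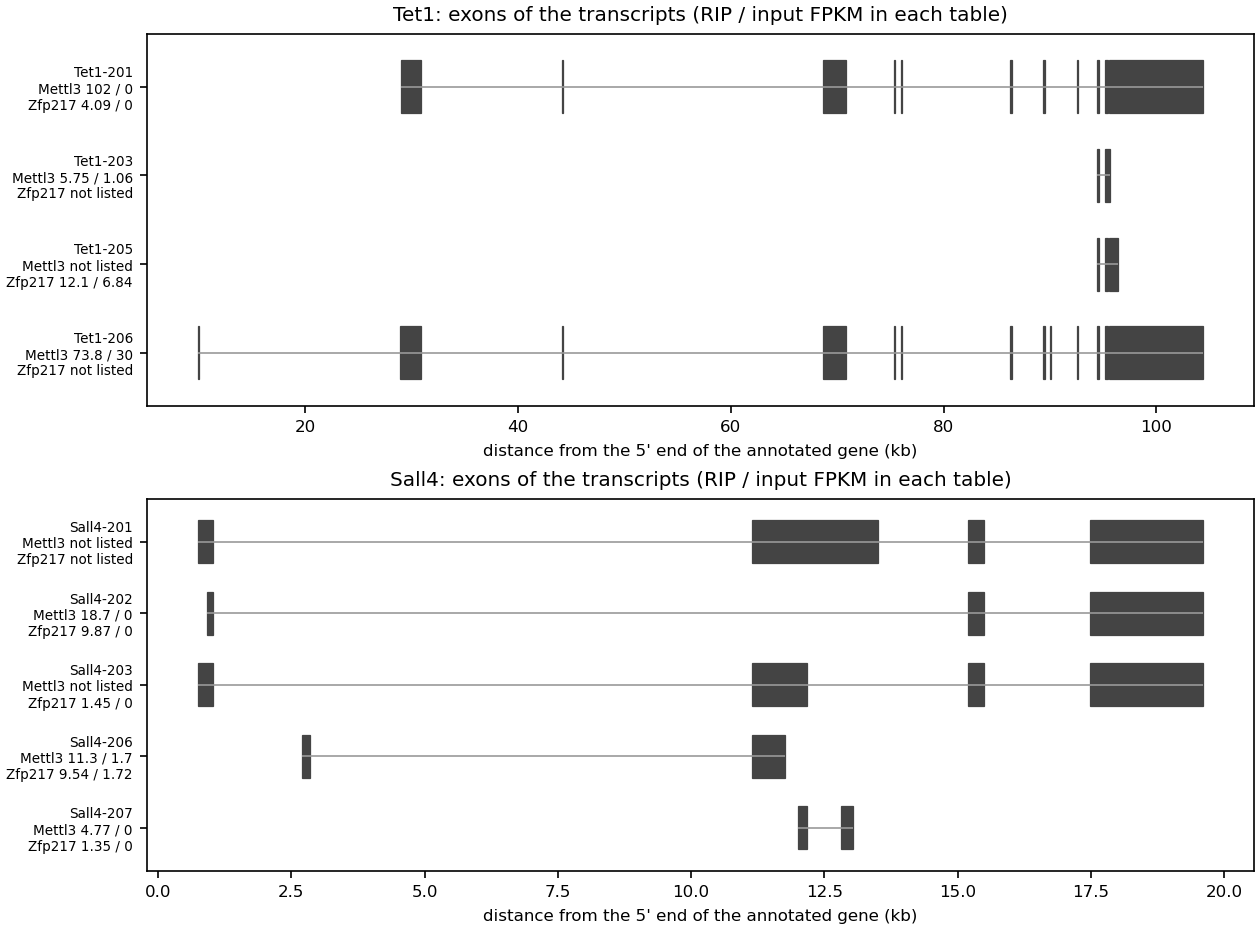
Exons (boxes) and introns (lines) of the Tet1 and Sall4 transcripts against distance in kb from the 5′ end of the annotated gene, with RIP and input FPKM in each table beside each name. Tet1-201 and Tet1-206 share nearly all exons, and Sall4-202, with 18.7 FPKM in the Mettl3 RIP, lacks exon 2.

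The Dppa genes are expressed in stem cells, the early embryo and germ cells. Dppa2 and Dppa4 are neighbouring genes on chromosome 16 whose proteins bind each other and chromatin, and Dppa3 protects DNA methylation of the maternal genome after fertilisation. Dppa4 spans 48283733 to 48294237 and Dppa2 spans 48303908 to 48319723, both on the plus strand, and Dppa3 lies on chromosome 6 from 122626410 to 122630272 (plus strand). Dppa2 (ENSMUST00000097175) had 21.4 FPKM in the Mettl3 RIP and 12.5 FPKM in the input, 1.71-fold higher (interval 1.405 to 2.09), below the 2-fold rule. Dppa4 (ENSMUST00000114539, not in GENCODE M21) had 4.90 FPKM in the Mettl3 RIP and 0.01004 FPKM in the input. In the Zfp217 table it had 12.3 FPKM in the RIP and 0.0118 FPKM in the input, and its RIP value was 322nd of 5082 protein-coding transcripts. No fold is given for Dppa4 against an input so near 0.

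Dppa3-202 (ENSMUST00000123429) had 1.79 FPKM in the Zfp217 RIP and 0.899 FPKM in the input. The 1.99-fold difference was not detectable at this depth, since its interval of 0.456 to 11.9, from about 7.03 fragments in the RIP and 3.01 in the input, includes 1. Fbxo15, an F-box protein of an SCF ubiquitin ligase and a classic marker of pluripotent cells, had 10.9 FPKM in the Zfp217 RIP and 0.0221 FPKM in the input for ENSMUST00000037718. Fbxo15 lies on chromosome 18. The input value listed for ENSMUST00000037718 is equal to about 0.174 of a fragment. None of its 1437 bases and none of its 9 junctions is outside other annotated Fbxo15 transcripts. The value thus depends on how fragments were divided between them, and does not give the input level of all Fbxo15 RNA.

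Otx2, a homeodomain factor that leads cells from the naive to the formative state, lies on chromosome 14 from 48657677 to 48673819 on the minus strand and had like values in both RIPs. Otx2-201 (ENSMUST00000118578) had 11.6 FPKM in the Mettl3 RIP and 3.75 FPKM in the input, 3.09-fold higher (interval 2.24 to 4.34). It had 10.1 FPKM in the Zfp217 RIP and 3.79 FPKM in the input, 2.68-fold higher (1.91 to 3.81). The 2 intervals overlap over most of their length.

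Otx2-202 (ENSMUST00000119070), which uses an acceptor 24 bases upstream and so adds 8 codons, had 1.03 FPKM in the Mettl3 RIP and 1.37 FPKM in the Zfp217 RIP, with the input at 0 in both tables. It lay just above the 1 FPKM limit of the tables, at about 16.0 and 15.3 fragments.

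Lefty2, a secreted antagonist of Nodal, had 19.2 FPKM in the Mettl3 RIP and 8.98 FPKM in the input for ENSMUST00000085797. It lies on chromosome 1 from 180893108 to 180899103 (plus strand). The ratio was 2.14 (interval 1.75 to 2.62). Its log2 ratio of 1.02 was just inside the 2-fold rule of 1, and no other of the 10 genes lay as near to it. Of its 2473 bases, 88.5% are in no other Lefty2 transcript, the highest share among the listed transcripts with a GENCODE M21 entry.

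Rif1 binds telomeres and broken DNA ends and sets replication timing. It lies on chromosome 2 from 52072832 to 52122383 (plus strand). Its coding transcript ENSMUST00000069794, not in GENCODE M21, had 6.23 FPKM in the Mettl3 RIP and 0.00254 FPKM in the input. Rif1-204 (ENSMUST00000125376), which the authors' table calls a processed transcript, had 4.44 FPKM in the RIP and 2.60 FPKM in the input, 1.71-fold higher (interval 1.26 to 2.34). Rif1-202 (ENSMUST00000125116), a noncoding transcript, had 2.09 FPKM in the RIP and 1.18 FPKM in the input, and its interval of 0.598 to 6.30 includes 1. Rif1-204 was its leading transcript, so Rif1 did not meet the 2-fold rule.

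**Figure D3:**
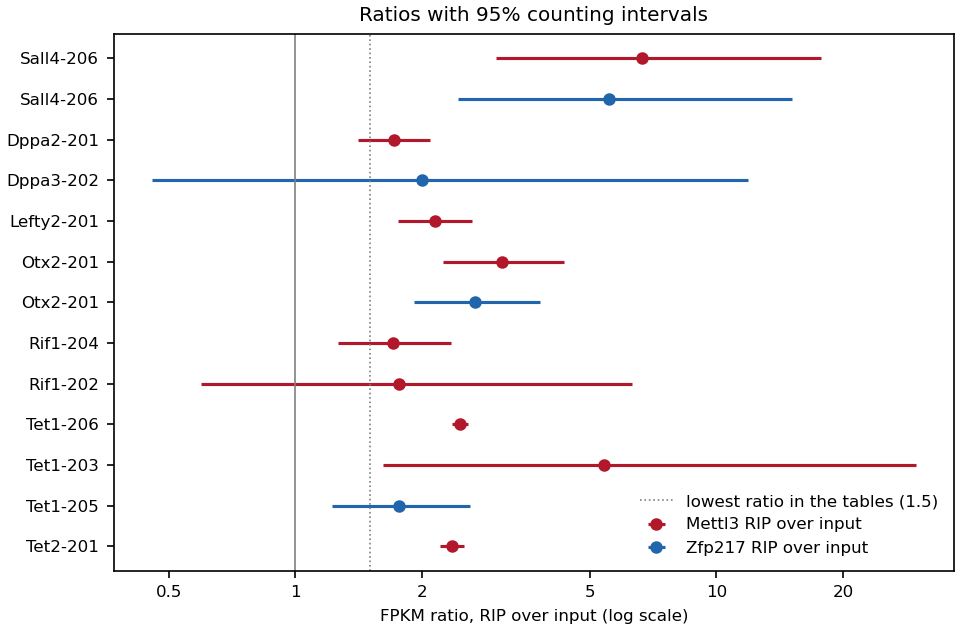
FPKM ratio of RIP over input (log axis) with 95% counting intervals for the transcripts with at least 1 estimated input fragment, Mettl3 in red and Zfp217 in blue. Intervals reach below 1 for Rif1-202 and Dppa3-202, and the dotted line at 1.5 is the lowest ratio in the tables.

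Counting intervals lay above 1 for 8 of the 9 Mettl3 transcripts and 3 of the 4 Zfp217 transcripts for which they could be computed. Over all such transcripts of the tables, which were selected for a high ratio, the shares were 81.5% and 67.7%. The input was listed at 0 for 4 of 15 transcripts in the Mettl3 table (26.7%, and 31.4% of the whole table) and for 5 of 11 in the Zfp217 table (45.5%, and 38.9% of the whole table).

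The 2 RIPs were then set against each other for the 7 transcripts listed in both tables, after the Mettl3 values were divided by 0.989, the median ratio of the input values of the Mettl3 table to those of the Zfp217 table. Tet1-201 differed most, with 103 FPKM in the Mettl3 RIP and 4.09 FPKM in the Zfp217 RIP, a ratio of 25.1 (counting interval 22.8 to 27.8). Both values depend on how fragments were divided between Tet1-201 and other Tet1 transcripts, which the interval does not cover. Sall4-207 was 3.58-fold higher in the Mettl3 RIP, but its interval of 0.876 to 25.1 includes 1. Sall4-202 had 18.9 FPKM in the Mettl3 RIP and 9.87 FPKM in the Zfp217 RIP, a ratio of 1.91 (interval 1.60 to 2.29). Dppa4 went the other way, with 4.95 FPKM in the Mettl3 RIP and 12.3 FPKM in the Zfp217 RIP, a ratio of 0.403, and no interval could be given without its length.

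Sall4-206 (ratio 1.19, interval 0.807 to 1.79), Otx2-201 (1.15, 0.933 to 1.43) and Otx2-202 (0.758, 0.352 to 1.64) had intervals that include 1. On the log2(FPKM + 1) scale, Mettl3 RIP exceeded Zfp217 RIP by 2-fold or more for Tet1-201 and Sall4-207, 2 of 7, where 5.69% of 4026 transcripts in both tables did. Dppa4 was at least 2-fold lower in the Mettl3 RIP, 1 of 7, where 3.33% were. Tet1-206 has no Zfp217 RIP value here, so the Tet1-201 ratio is not that of all Tet1 RNA.

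**Figure D4:**
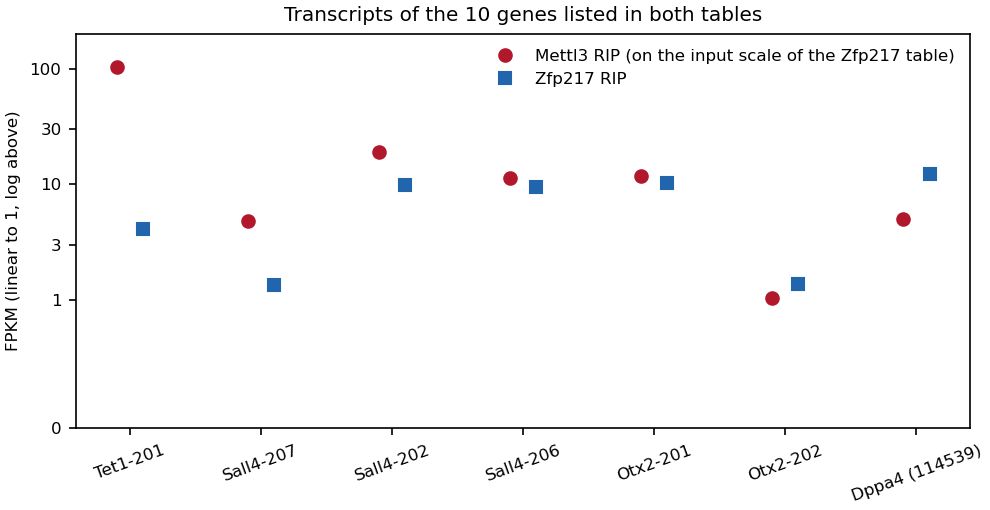
FPKM in the Mettl3 RIP (red circles, on the input scale of the Zfp217 table) and in the Zfp217 RIP (blue squares) for the 7 transcripts listed in both tables, on an axis that is linear to 1 and logarithmic above. Tet1-201 is at 103 and 4.09 FPKM, Dppa4 at 4.95 and 12.3 FPKM, and Otx2-201 at 11.7 and 10.1 FPKM.

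Mettl3 and its partners are known to favour the letters GGACT in mRNA. These were counted on the transcript strand of the 17 listed transcripts with a GENCODE M21 sequence. The median was 0.980 per kb over the 13 Mettl3 transcripts and 0.813 per kb over the 10 Zfp217 transcripts, beside 0.972 and 1.03 over all protein-coding transcripts of each table. Tet1-201 and Tet1-206 both held 13 and Tet2-201 held 9, about 0.930, 0.905 and 0.980 per kb. Dppa2-201, Dppa3-202, Tet1-203, Tet1-205 and Sall4-207 held none.

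Sall4-206 held 5 in 773 bases, 6.47 per kb. That density, the highest of the 17 listed transcripts counted, was the limit for the shares that follow, so they are a description. Counting Sall4-206 itself, 0.0894% of protein-coding transcripts in the Mettl3 table and 0.0452% in the Zfp217 table were at least as dense. Of its 5 copies, 4 are printed within 30 bases of coding sequence, with GGACT in capitals, to show how closely they lie.
Sall4-206, position 197: tgaagcctcagaGGACTccataccggtgaa
Sall4-206, position 362: agtgccttcagaGGACTtttccagagctgc
Sall4-206, position 446: cagcagctcgggGGACTtgaagaagctggg
Sall4-206, position 467: gaagctgggcacGGACTccatcctgtactt
Positions are counted from 1 at the start of the transcript and give the first letter of GGACT. These 4 copies lie in the part of exon 2 that Sall4-203 also holds. Sall4-203 held 5 copies in 3741 bases, 1.34 per kb. Other short listed transcripts, Sall4-207 (393 bases), Tet1-203 (581 bases) and Dppa3-202 (691 bases), held none. What sets the density of Sall4-206 was not tested. Sall4-202, which lacks exon 2, held 1 copy in 2534 bases.

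In the last 200 coding bases before and including the stop codon, a region often methylated, GGACT was found in 1 of 10 Mettl3 transcripts with an annotated stop codon and in 0 of 7 Zfp217 transcripts. The share was 20.97% and 21.9% of the protein-coding transcripts of each table, and 20.8% of 46967 annotated coding transcripts. Last exons overlap between Tet1-201 and Tet1-206, between Otx2-201 and Otx2-202, and between Sall4-202 and Sall4-203. The transcripts counted are therefore not independent of each other. The 1 transcript with GGACT there was Rif1-204, which the authors' table calls a processed transcript. It is thus not among the protein-coding transcripts of the Mettl3 table that the share covers. Rif1-204 held GGACT at 2 places, given by the number of bases from the first G to the end of the stop codon.
Rif1-204, 147 bases: atgaaatctcgtGGACTtgaagaaattcca
Rif1-204, 86 bases: gagtggagagcaGGACTgtctccacggatg

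Of the DNA methylation and TET pathway, 11 of 17 symbols were listed for Mettl3, and 5 of 9 kept genes (mean FPKM of at least 1) were at least 2-fold higher. For Zfp217 these were 9 of 17 listed and 4 of 7 kept. Of all genes, 48.6% for Mettl3 and 45.5% for Zfp217 met the same rule. Beside the listing counts of this and the following lists stand 25.2% for Mettl3 and 21.7% for Zfp217. These are the listed shares of symbols with a protein-coding transcript in GENCODE M21. Kept genes of the lists include some with an input of 0, such as Uhrf1, which passed the filter through the RIP alone. Uhrf1, which guides maintenance methylation and is bound by Dppa3, had 9.85 FPKM in the Mettl3 RIP and 11.0 FPKM in the Zfp217 RIP, with the input listed at 0. Zfp57, which keeps imprints methylated, had 22.7 FPKM in the Mettl3 RIP and 11.8 FPKM in the input, 1.92-fold higher (interval 1.55 to 2.39). Tet3, the third Tet enzyme, was listed for Mettl3 and not for Zfp217, and is named here after its listing was seen.

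Of the Nodal and Lefty pathway, 11 of 17 genes were listed for Mettl3 with 2 of 8 kept genes at least 2-fold higher, and 10 of 17 for Zfp217 with 4 of 8. The shares over all genes were 48.6% and 45.5%. Nodal, the ligand that Lefty2 blocks, was 2.33-fold higher in the Zfp217 RIP (10.5 FPKM against 4.51 in the input, interval 1.69 to 3.25). Smad7, an inhibitor of the pathway, had 17.9 FPKM in the Mettl3 RIP and 7.61 FPKM in the input, a ratio of 2.35, and 13.2 FPKM in the Zfp217 RIP and 7.69 FPKM in the input, a ratio of 1.71. The receptor Acvr1b had 6.55 FPKM in the Zfp217 RIP and 2.86 FPKM in the input, a ratio of 2.29 that fell just short of the rule on the log2(FPKM + 1) scale (0.97).

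Of 17 other genes of exit from naive pluripotency, 12 were listed for Mettl3 and 12 for Zfp217, and 6 of 11 and 2 of 10 kept genes were at least 2-fold higher. Over all genes, 48.6% and 45.5% were. Etv5, an ETS factor of this transition, had 62.95 FPKM in the Mettl3 RIP and 14.6 FPKM in the input, 4.30-fold higher (interval 3.83 to 4.84). It was 1.82-fold higher in the Zfp217 RIP (26.99 FPKM against 14.8 in the input, interval 1.60 to 2.09). Mbd3, a NuRD subunit, had 9.53 FPKM in the Zfp217 RIP and 4.32 FPKM in the input, with a log2(FPKM + 1) ratio of 0.99 just under the rule.

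Of 14 genes of the Sall family and early embryo, 4 were listed for Mettl3 and 1 for Zfp217. At least 2-fold higher were 1 of 3 kept genes for Mettl3 and 1 of 1 for Zfp217, Tcl1 in each case. The shares over all genes were 48.6% and 45.5%. Sall1, a relative of Sall4, had 54.5 FPKM in the Mettl3 RIP and 27.1 FPKM in the input, with a log2(FPKM + 1) ratio of 0.98 just under the rule. Tcl1, an activator of Akt kinase, had 7.78 FPKM in the Mettl3 RIP and 1.75 FPKM in the input, a ratio of 4.43, and 10.1 FPKM in the Zfp217 RIP and 1.77 FPKM in the input, a ratio of 5.68.

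Of 16 telomere and break repair symbols around Rif1, 8 were listed for Mettl3 and 9 for Zfp217, and 3 of 5 and 4 of 6 kept genes were at least 2-fold higher. Ppp1cc, a catalytic subunit of the phosphatase that Rif1 recruits, had 36.2 FPKM in the Mettl3 RIP and 15.9 FPKM in the input, a ratio of 2.28. Of 10 SCF ligase genes, 5 were listed for each antibody, with 3 of 5 and 1 of 4 kept genes at least 2-fold higher. For both lists, the shares over all genes were 48.6% for Mettl3 and 45.5% for Zfp217. Skp1a, the adaptor that F-box proteins bind, was 2.16-fold higher in the Zfp217 RIP (100.4 FPKM against 46.5 in the input, interval 1.91 to 2.44).

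Otx2-201 and Sall4-206 were the 2 transcripts of the 10 genes in both tables with at least 1 FPKM in the input. By Euclidean distance of log2(FPKM + 1) over the 3 libraries, the transcripts of other genes nearest to Otx2-201 were those of Acat2 (distance 0.20), Fam178a (0.21) and Brd3 (0.22). Nearest to Sall4-206 were transcripts of Ctsd (0.26), Zbtb44 (0.33) and Txnrd1 (0.36). Ctsd had 9.54 FPKM in the Mettl3 RIP, 9.58 FPKM in the Zfp217 RIP and 1.47 FPKM in the input.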

How the data were processed

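Per the labels' protocols, each antibody was added to a lysate of CCE nuclei, protein G beads pulled the complexes down, and TruSeq libraries were made. The authors deposited 2 tables of FPKM per Ensembl transcript, with their log2 fold change of RIP over input, which matched the FPKM ratio within 0.00466. Cufflinks, Cuffdiff, TopHat2 2.0.8, Bowtie2, CASAVA 1.4 and the build mm9 are named, per the submitters' processing notes, with no role or setting. How transcripts were selected is not given in the sources used here. No coordinate was taken from mm9.

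Here log2((RIP + 1)/(input + 1)) was computed within each table. Leading transcripts with a mean of at least 1 FPKM were kept. Depth was estimated from genes with 1 transcript in GENCODE M21: the fragment total and mean fragment length were chosen that made most values between 0.6 and 8.5 fragments whole (within 0.08), which 84.7% to 87.2% were. Fragment numbers follow from FPKM and M21 length for transcripts of at least 300 bases. Annotation may differ from the authors', so they are approximate. Intervals are exact (Clopper-Pearson, 95%) on the split of fragments between libraries and cover counting error only. Both steps were tested on simulated data. Of 19 listed transcripts, 17 had an M21 length. No promoter was printed, as the data do not bear on promoters. Python 3.11.15, pandas 2.3.3, numpy 2.4.6 and scipy 1.17.1 were used.

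The 10 genes and the other lists were chosen with earlier results of these data known. All listed transcripts of the 10 genes were named, and the genes named from each list were among its 3 of highest mean FPKM, apart from Tet3 and the cell type markers; 1 such gene is not reported here. Alternatives were a pseudocount of 0.1, other filters on low values, summed transcripts, a 3-fold rule and unscaled RIP values.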

Additional observations from a re-analysis of the deposited data

How the results depend on the processing

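The number of genes at least 2-fold higher was 6 for Mettl3, 4 for Zfp217 and 3 for both. It stayed within 1.5 times these values, in all 3 counts, with a pseudocount of 0.1 FPKM, with no filter on the mean, without inputs under 0.01 FPKM and with summed transcripts. The sums hold only listed transcripts, so the calls of Rif1 for Mettl3 and Tet1 for Zfp217 that they added are not read as changes of those genes: Tet1-206, with 29.95 FPKM in the input of the Mettl3 table, is missing from the Zfp217 sum. With both values at least 1 FPKM, 2 of 3 genes (Otx2 and Sall4) were left for Zfp217, since Dppa4 and Fbxo15 have inputs near 0. Without transcripts under 1 estimated input fragment or with no estimate, the number for Zfp217 was also 2. With a 3-fold rule, 2 genes (Sall4 and Dppa4) were left for Mettl3. The count of transcripts at least 2-fold apart between the RIPs was 3 of 7 with either pseudocount and with the RIP values as deposited.

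No paired analysis was possible because each group had 1 library, so leaving one out was not run. Among transcripts with an interval, Tet1-203, Dppa3-202, Rif1-202 and Sall4-206 rested on fewer than 10 estimated input fragments. Values of transcripts with shared exons depend on how the authors' software divided fragments.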
